A study of Danio rerio with 3 samples.

Results

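The 9 genes described here encode the signal-transducing chains of the B cell receptor and the proteins that act directly behind them: *cd79a*, *cd79b*, *cd37*, *blnk*, *pik3ap1*, *syk*, *lyn*, *btk* and *plcg2*. They were chosen by name and matched by zebrafish symbol or its human-style form to the deposited gene identifiers. All 9 were found, each once, among 32057 genes. Immunoglobulin genes were left out.

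On a B cell, membrane immunoglobulin cannot signal by itself and is held by the CD79A and CD79B chains, whose cytoplasmic tails carry tyrosine motifs. Src family kinases such as LYN phosphorylate these motifs, SYK docks on them and phosphorylates the adaptor BLNK, and BLNK brings BTK to its substrate PLCG2, which starts the calcium and protein kinase C branches. In mammals the receptor chains are restricted to the B lineage, whereas SYK, LYN, BTK and PLCG2 also serve Fc receptors, integrins and other receptors of myeloid cells, mast cells and platelets, the mammalian counterparts of thrombocytes.

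RNA was measured in 3 populations of low side scatter cells from the kidney of adult zebrafish, the blood-forming organ of fish, with 1 library each. All fish carried a *gata2a:GFP* transgene, active in several blood lineages and in vascular endothelium, and a *runx1:mCherry* transgene driven by a mouse *Runx1* enhancer, which need not follow the endogenous gene. The sorted populations were gata2a+ runx1+ cells, described in the labels as HSCs (haematopoietic stem cells) and called double-positive here, gata2a- runx1+ cells, described as progenitors primed for erythroid and/or myeloid fates and called runx1 single-positive, and gata2a+ runx1- cells, described as lymphoid-primed progenitors and called gata2a single-positive. The labels give the genotype as wild type and no treatment, and the number of fish behind a library is not given in the sources used here.

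The deposited values are RPM, reads of a gene scaled to a fixed total of the reads counted on genes, and between 8094670 and 8205803 reads were counted per library. A gene with more than 3 reads, about 0.37 RPM, was taken as detected. Brackets give 95% intervals, Wilson intervals for RPM and exact intervals for folds, and both cover the counting error of reads only. The amplified cDNA carries no molecular identifiers, so several reads can be copies of 1 molecule. The intervals may therefore be too narrow and the p-values below too small. With 1 library per population no difference has a replicate check. Reads of a gene were compared by two-sided Fisher's exact tests, adjusted by Benjamini and Hochberg across every gene with a read in the pair, and such a p-value compares the libraries, not the populations. RPM is not corrected for transcript length, so each gene is compared with itself across libraries and not with other genes.

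The 9 genes formed a range, from receptor components read almost wholly in gata2a single-positive cells to *btk*, read at similar levels in all 3 libraries. The highest RPM was in gata2a single-positive cells for 8 of the 9 genes, by less than the counting error for *btk*, and *lyn* was the exception, with its highest RPM in double-positive cells. The lowest RPM was in runx1 single-positive cells for 7 genes and in double-positive cells for *blnk* and *plcg2*. In gata2a single-positive cells all 9 genes had more than 3 reads, against 7 genes in each of the other libraries, where *cd79b* and *cd37* were at or under that number. Of all 32057 genes, 13551, 12748 and 13759 had more than 3 reads in double-positive, runx1 single-positive and gata2a single-positive cells. How often each library had the highest or lowest RPM over all genes was not computed, so these counts of the 9 genes have no background. These are bulk libraries, in which fewer cells that express a gene and less of its RNA per cell cannot be told apart.

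**Figure D1:**
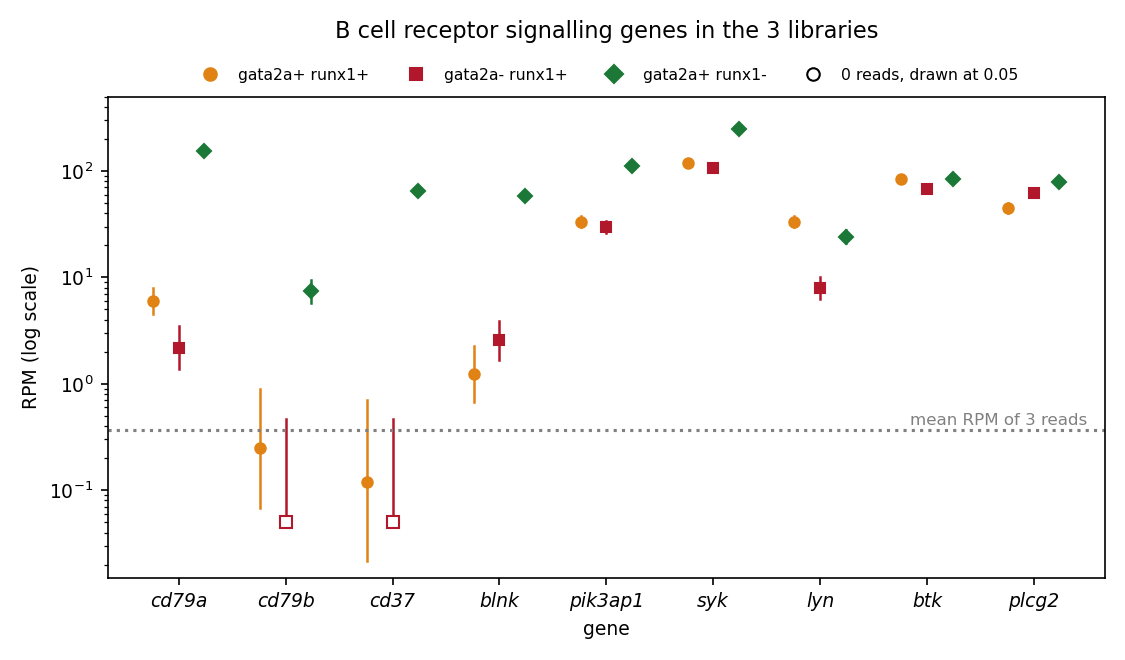
RPM of the 9 genes (log scale) in gata2a+ runx1+ (circles), gata2a- runx1+ (squares) and gata2a+ runx1- (diamonds) cells, 1 library each, with 95% Wilson intervals as vertical lines; the dotted line is the mean RPM of 3 reads and open symbols are genes with 0 reads. The diamonds stand far above the other symbols for *cd79a*, *cd79b*, *cd37* and *blnk*, and close to them for *btk*.

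*cd79a* (ENSDARG00000037473), the chain that pairs with CD79B to carry the receptor signal, was at 6.03 RPM (4.56 to 7.97) in double-positive cells. It was at 2.19 RPM (1.39 to 3.47) in runx1 single-positive cells and 153.8 RPM (145.5 to 162.6) in gata2a single-positive cells. The 3 intervals did not overlap, and gata2a single-positive cells were far above both others. The fold was 25.5 (19.2 to 34.7) over double-positive cells, at an adjusted p of 9.0e-300, and 70.1 (44.2 to 118.7) over runx1 single-positive cells. Both runx1+ libraries nevertheless held more than 3 reads, 49 and 18, and double-positive cells were 2.75-fold (1.57 to 5.02) higher than runx1 single-positive cells (adjusted p = 0.000421, Fisher's exact test).

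*cd79b* (ENSDARG00000104691), the partner chain, had 60 reads in gata2a single-positive cells, or 7.41 RPM (5.76 to 9.54). It had 2 reads in double-positive cells and none in runx1 single-positive cells, where the upper Wilson bound was 0.468 RPM and the floor of 3 reads was 0.366 RPM. The gene was thus detected in gata2a single-positive cells alone. The fold was 30.1 (7.98 to 254.3) over double-positive cells, and the width of this interval comes from the 2 reads. Over runx1 single-positive cells it was 20.3 with 0 reads taken as 3, and the exact lower bound was 16.0. The intervals of the fold over double-positive cells for *cd79a* and *cd79b* overlapped.

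*cd37* (ENSDARG00000075515), a leukocyte tetraspanin abundant on mammalian mature B cells, had 530 reads in gata2a single-positive cells, or 65.5 RPM (60.1 to 71.3). A single read was counted in double-positive cells and none in runx1 single-positive cells. Among the 9 genes it had the largest share of its summed RPM in gata2a single-positive cells, 99.8%, against 94.9% for *cd79a*, 96.7% for *cd79b* and 93.9% for *blnk*. The fold over double-positive cells was 532 (95.1 to 21048), with the upper bound set by the single read. Over runx1 single-positive cells the fold was 179.1 with its reads there set to the floor, and the exact lower bound was 145.1.

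*blnk* (ENSDARG00000042722), the adaptor that links SYK to BTK and PLCG2 and in mammals is also found in macrophages, was at 57.9 RPM (52.9 to 63.4) in gata2a single-positive cells. It was at 1.23 RPM (0.669 to 2.27) in double-positive cells and 2.56 RPM (1.67 to 3.91) in runx1 single-positive cells. This adaptor followed the receptor chains, 47.1-fold (25.4 to 98.8) and 22.6-fold (14.6 to 36.9) higher in gata2a single-positive cells. The order of the other two libraries was opposite to that of *cd79a*, on 10 and 21 reads, and the difference between them was not detectable at this depth (Fisher's exact test, adjusted p = 0.129).

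*pik3ap1* (ENSDARG00000078285) encodes BCAP, an adaptor that brings phosphoinositide 3-kinase to the receptor and in mammals also acts in myeloid cells and NK cells. Its RPM was 33.5 (29.7 to 37.7) in double-positive cells, 29.7 (26.2 to 33.7) in runx1 single-positive cells and 111.5 (104.5 to 119.1) in gata2a single-positive cells. It was 3.33-fold (2.91 to 3.83) and 3.75-fold (3.25 to 4.34) higher in gata2a single-positive cells, and the other two libraries overlapped in their intervals (adjusted p = 0.296, Fisher's exact test). With 272 and 244 reads there, its level in the runx1+ libraries was not near the limit of detection.

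*syk* (ENSDARG00000008186), the kinase that docks on the phosphorylated receptor tails, was read in large numbers in every library. It was at 118.4 RPM (111.2 to 126.1) in double-positive cells, 106.8 RPM (99.9 to 114.1) in runx1 single-positive cells and 247.3 RPM (236.7 to 258.4) in gata2a single-positive cells. The fold of gata2a single-positive cells was 2.09 (1.93 to 2.26) over double-positive cells and 2.32 (2.14 to 2.51) over runx1 single-positive cells, just past the 2-fold limit, and the first interval includes 2. The runx1+ libraries differed by 1.11-fold (1.01 to 1.22), which did not pass the adjusted test (adjusted p = 0.0568, Fisher's exact test).

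*lyn* (ENSDARG00000067916), a Src family kinase that starts the signal and in mammals also restrains it, had a pattern of its own. It was at 33.5 RPM (29.7 to 37.7) in double-positive cells, 7.92 RPM (6.22 to 10.1) in runx1 single-positive cells and 24.2 RPM (21.1 to 27.8) in gata2a single-positive cells. The 3 intervals did not overlap, and the low library was runx1 single-positive. double-positive cells were 4.23-fold (3.21 to 5.63) higher than runx1 single-positive cells and 1.38-fold (1.15 to 1.67) higher than gata2a single-positive cells (adjusted p = 0.00132, Fisher's exact test).

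*btk* (ENSDARG00000004433), the Tec family kinase that activates PLCG2, varied least of the 9 genes. It was at 83.6 RPM (77.5 to 90.1) in double-positive cells, 67.4 RPM (62.0 to 73.2) in runx1 single-positive cells and 84.9 RPM (78.8 to 91.5) in gata2a single-positive cells. The fold between both gata2a+ libraries was 1.02, with an interval from 0.912 to 1.13 (adjusted p = 0.859, Fisher's exact test), so that a difference of more than 1.13-fold upward lay outside the counting error. runx1 single-positive cells were lower than both, and gata2a single-positive cells stood 1.26-fold (1.12 to 1.41) above them.

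*plcg2* (ENSDARG00000068763), the phospholipase that yields the calcium-releasing messenger, was at 45.0 RPM (40.7 to 49.9) in double-positive cells. It was at 61.7 RPM (56.5 to 67.3) in runx1 single-positive cells and 79.4 RPM (73.5 to 85.8) in gata2a single-positive cells. The 3 intervals did not overlap, but no pair of libraries differed by more than 2-fold. The largest fold was 1.76 (1.55 to 2.01), between gata2a single-positive and double-positive cells.

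**Figure D2:**
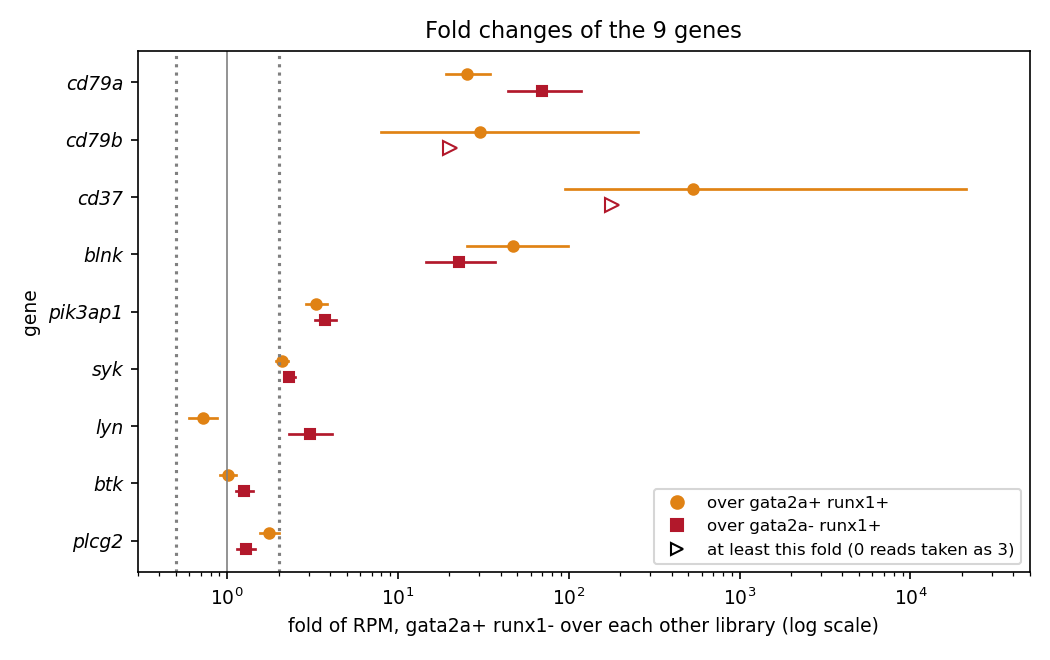
Fold of RPM (log scale) of gata2a+ runx1- cells over gata2a+ runx1+ cells (circles) and over gata2a- runx1+ cells (squares) for the 9 genes, with exact 95% intervals. Open triangles are folds with 0 reads taken as 3, which are not lower ends of an exact interval. Dotted lines mark 2-fold in either direction. The points of *cd79a*, *cd79b*, *cd37* and *blnk* lie beyond 20-fold, *pik3ap1* and *syk* between 2-fold and 4-fold, *btk* and *plcg2* within 2-fold, and *lyn* at 0.723 and 3.06.

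Counted by the study's own limit of over 2-fold, 6 of the 9 genes were higher in gata2a single-positive than in double-positive cells and none was lower. Over all 15724 genes with more than 3 reads in either library, 24.0% were higher by this rule and 20.5% were lower. Against runx1 single-positive cells 7 of the 9 genes were higher and none was lower, beside 29.0% and 20.1% of 15375 genes. Between both runx1+ populations, 7 of the genes could be compared. *cd79a* and *lyn* were over 2-fold higher in double-positive cells and *blnk* was lower, beside 23.5% and 13.5% of 14886 genes. The median difference in log2(RPM + 1) over the 9 genes was 1.71 against double-positive cells and 1.87 against runx1 single-positive cells, where the medians over all genes compared were -0.03 and 0.09. *cd79b* and *cd37* could be compared only because of their reads in gata2a single-positive cells. When Fisher's exact test also had to give an adjusted p under 0.05, the counts were 6 and 0 against double-positive cells (all genes, 21.7% and 18.7%), 7 and 0 against runx1 single-positive cells (26.7% and 18.5%), and 2 and 0 between both runx1+ populations (20.8% and 11.8%). The 6 genes over 2-fold higher than in each other library were *cd79a*, *cd79b*, *cd37*, *blnk*, *pik3ap1* and *syk*, and none was lower than in each, beside 17.8% and 9.98% of 16501 genes.

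The receptor chains and the shared kinases were next set against each other within each library, as reads of a gene per read of *cd79a*. This ratio does not depend on the library total, and its change between libraries does not depend on transcript length. In gata2a single-positive cells 1.61 *syk* reads were counted per *cd79a* read, against 19.6 (14.7 to 26.7) in double-positive cells and 48.7 (30.6 to 82.5) in runx1 single-positive cells. For *btk* the ratios were 0.552, 13.9 and 30.7 in the same order, and for *lyn* 0.157, 5.55 and 3.61. In the runx1+ libraries each of these kinases was thus far more abundant relative to *cd79a* than in gata2a single-positive cells. The size of this excess follows from the folds of *cd79a* and of each kinase given above, so it is not a separate observation. The ratio in double-positive cells exceeded that in gata2a single-positive cells 12.2-fold (9.07 to 16.8) for *syk*, 25.1-fold (18.4 to 34.8) for *btk* and 35.3-fold (24.9 to 50.5) for *lyn*. For runx1 single-positive cells the excess was 30.3-fold (18.9 to 51.6), 55.7-fold (34.5 to 95.4) and 22.9-fold (13.1 to 41.9). With *cd79b* in place of *cd79a*, the excess in double-positive cells was 14.4-fold (3.80 to 122.0) for *syk*, 29.7-fold (7.79 to 251.1) for *btk* and 41.6-fold (10.8 to 354.1) for *lyn*. In runx1 single-positive cells, which had no *cd79b* read, it was 8.75-fold, 16.1-fold and 6.63-fold with 0 reads taken as 3, without an interval. The adaptor *blnk* behaved otherwise, since its ratio to *cd79a* in double-positive cells was 0.542 times (0.243 to 1.09) that in gata2a single-positive cells, an interval that includes 1, and in runx1 single-positive cells it was 3.10 times (1.55 to 6.22) as high.

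**Figure D3:**
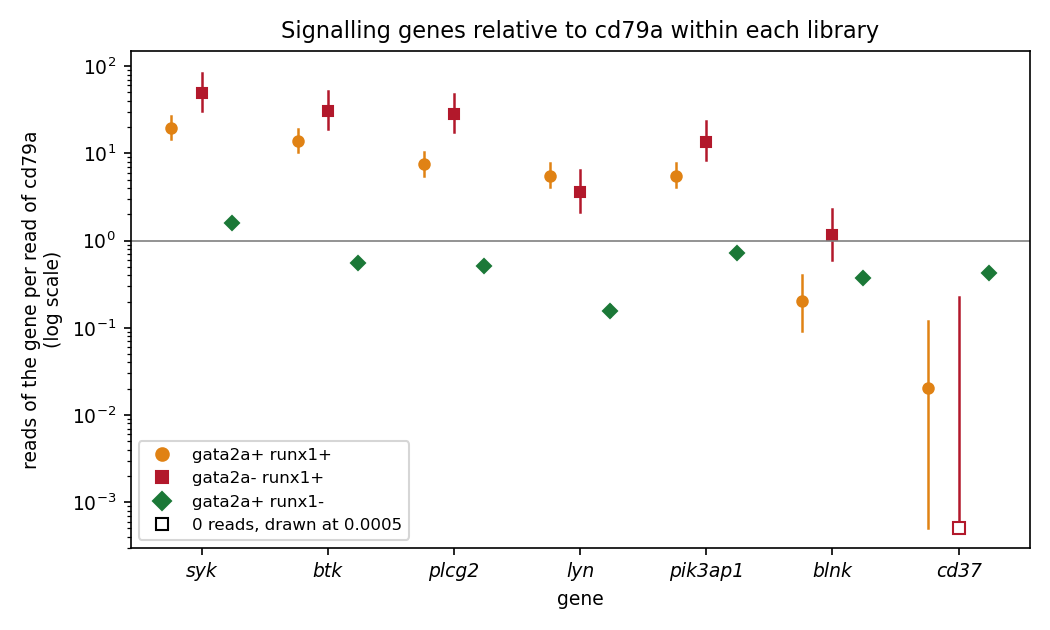
Reads of 7 signalling genes per read of *cd79a* (log scale) within gata2a+ runx1+ (circles), gata2a- runx1+ (squares) and gata2a+ runx1- (diamonds) libraries, with exact 95% intervals of the ratio; the open square is a gene with 0 reads. *syk*, *btk*, *plcg2*, *lyn* and *pik3ap1* lie above 1 in both runx1+ libraries and lower in gata2a+ runx1- cells, where only *syk* is above 1.

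The low reads in double-positive cells of the genes with the largest folds did not all scale with *cd79a*. As a percentage of the level in gata2a single-positive cells, *cd79a* was at 3.92% (2.89 to 5.22), *cd79b* at 3.32% (0.393 to 12.5) and *blnk* at 2.12% (1.01 to 3.94), whereas *cd37* was at 0.188% (0.00475 to 1.05). At the rate of *cd79a*, 20.9 reads of *cd37* would have been counted, and 1 was. The B lineage factor *pax5*, with 258 reads in gata2a single-positive cells, had none in double-positive cells, where the same rate would give 10.2 reads. Other listed B cell genes fell on both sides of that rate in double-positive cells. The octamer-binding factor *pou2f2b* had 25 reads against 23.8 at the rate, *ighm* 527 against 644.5 and *ighd* 19 against 3.54. *ighz* had 0 reads against 44.0 and *cxcr5* 2 against 12.1. Furthest above the rate were genes listed under BCL11A, with 713 reads against 3.38, and IRF4, with 199 against 0.394. *rag1* and a gene listed under EBF1 had 0 reads, against 1.26 and 1.61. In runx1 single-positive cells *cd79a* was at 1.43% (0.842 to 2.26) and *blnk* at 4.42% (2.71 to 6.83) of their levels in gata2a single-positive cells, with no read of *cd79b*, *cd37* or *pax5*. These percentages were set side by side after the values were seen.

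The kinases, the phospholipase, BLNK and CD37 belong to families with members that serve other receptors, and these paralogues were compared in the same way. Of 21 paralogue genes matched, 16 had enough reads, and 12 were over 2-fold higher in gata2a single-positive than in double-positive cells, 1 was lower and 3 were neither. Against runx1 single-positive cells 14 were higher, none was lower and 2 were neither. Their median difference in log2(RPM + 1) was 1.49 and 2.21, respectively. Beside these counts stand the 24.0% and 29.0% of all genes that were higher in the same comparisons. Between the runx1+ populations 9 of 16 (56.2%) were higher in double-positive cells and 1 (6.25%) was lower, beside 23.5% and 13.5% of all genes. The list divides into 12 kinases, phospholipases and adaptors with enough reads, of which 9 were higher than in double-positive cells, none was lower and 3 were neither, and 4 tetraspanins, of which 3 were higher. The 1 paralogue lower in gata2a single-positive than in double-positive cells was a tetraspanin, a copy listed under CD82, at 2.96 RPM against 6.03 RPM. Its call was lost with TMM and with DESeq2 size factors.

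Among Src family kinases *blk*, which in mammals is found mainly in B cells, had 67 reads in double-positive cells, 46 in runx1 single-positive cells and 547 in gata2a single-positive cells. It was 8.19-fold (6.35 to 10.7) and 12.1-fold (8.91 to 16.7) higher in gata2a single-positive cells. *hck* and *fgr*, kinases of mammalian phagocytes, were 2.72-fold (2.19 to 3.39) and 4.01-fold (3.41 to 4.74) higher than in double-positive cells. *lyn* was the only Src kinase of the 6 plotted with its largest share in double-positive cells. The T cell kinase *lck* had 2 reads in gata2a single-positive cells and none in the others.

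In the Syk family *zap70*, which takes the place of SYK at the T cell receptor, was at 3.45 RPM in double-positive cells, 0.24 RPM in runx1 single-positive cells and 15.7 RPM in gata2a single-positive cells. Its fold of 4.55 over double-positive cells was larger than that of *syk*, and the intervals of the folds did not overlap. In the Tec family *tec* was level between the gata2a+ libraries, at 57.2 RPM and 58.6 RPM, as *btk* was, but it stood at 24.0 RPM in runx1 single-positive cells. The T cell kinase *itk* had 11, 0 and 46 reads in double-positive, runx1 single-positive and gata2a single-positive cells.

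*plcg1*, the widely expressed relative of *plcg2*, had its highest RPM in double-positive cells, 115.8 RPM, against 72.8 RPM in runx1 single-positive and 84.4 RPM in gata2a single-positive cells. *plcg1* and *plcg2* therefore differed in opposite directions between both gata2a+ libraries, with folds of 0.728 (0.659 to 0.805) and 1.76 (1.55 to 2.01). *lcp2a*, a copy of the SLP-76 adaptor that T cells and platelets use in place of BLNK, was at 165.6, 76.3 and 199.9 RPM in the 3 libraries. Its fold of 1.21 between the gata2a+ libraries compares with 47.1 for *blnk*. *lcp2b* rested on 4, 5 and 30 reads.

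**Figure D4:**
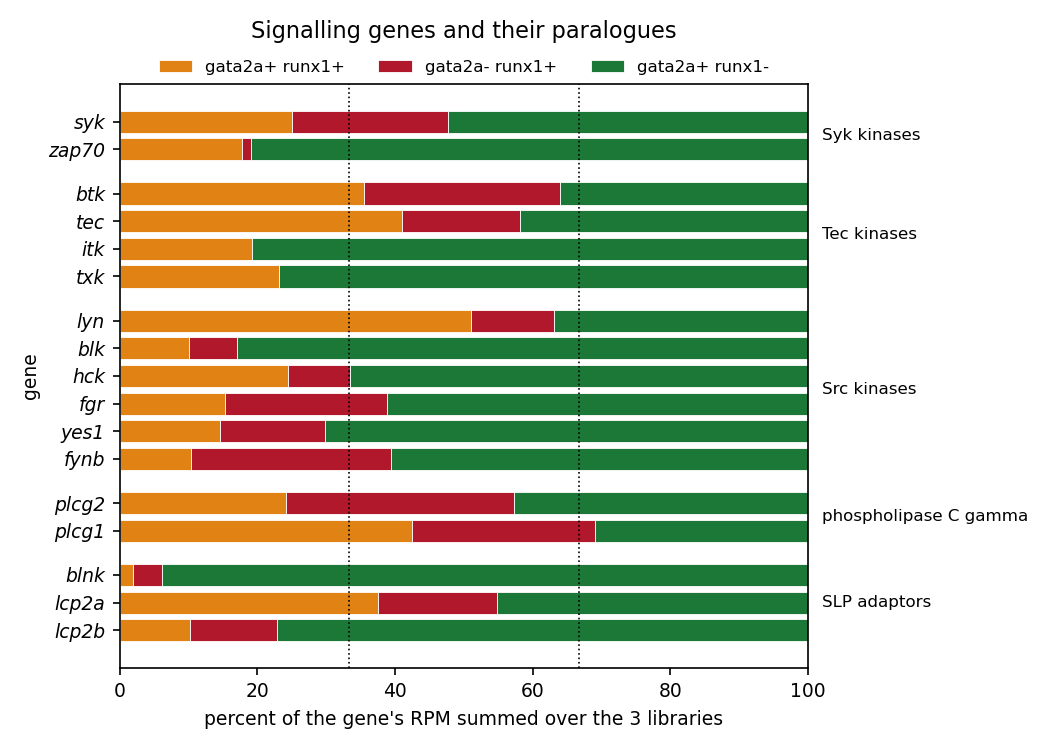
Percent of each gene's RPM, summed over the 3 libraries, from gata2a+ runx1+ (orange), gata2a- runx1+ (red) and gata2a+ runx1- (green) cells. The genes are *syk*, *btk*, *lyn*, *plcg2* and *blnk* with their paralogues. *cd79a*, *cd79b*, *cd37*, *pik3ap1* and the tetraspanin paralogues are not drawn. Dotted lines mark equal shares. *blnk* and *blk* are mostly green, *btk* is divided almost equally, and *lyn* has its largest part in gata2a+ runx1+ cells.

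Further along the pathway, when both gata2a+ libraries were compared, the genes listed as downstream were called higher about as often as genes in general. They were called lower less often. Of 66 such genes compared between gata2a single-positive and double-positive cells, 15 (22.7%) were over 2-fold higher, 8 (12.1%) were lower and 43 were neither, beside 24.0% and 20.5% of all genes, with a median difference of -0.02 in log2(RPM + 1). Among those with at least 5 RPM, 12 were higher and 2 were lower, beside 1880 and 1742 of all genes. No share of the genes compared was computed at this limit, so these counts do not show whether the list differs from genes in general. Against runx1 single-positive cells 24 of 65 (36.9%) were higher and 7 (10.8%) were lower, beside 29.0% and 20.1% of all genes. Between the runx1+ populations 21 of 64 (32.8%) were higher in double-positive cells and 5 (7.81%) were lower, beside 23.5% and 13.5%. *dapp1*, an adaptor that binds the lipid product of phosphoinositide 3-kinase, was the furthest above the nearer library, at 34.7 RPM in gata2a single-positive cells against 3.20 and 1.22 RPM. *rel*, the NF-kappa-B subunit of activated lymphocytes, was at 262.8 RPM against 84.1 RPM in double-positive and 33.9 RPM in runx1 single-positive cells. *nfkb2*, an NF-kappa-B subunit, and a copy listed under the human symbol STIM2, an endoplasmic calcium sensor, were also over 2-fold higher than in each other library. *rac1a*, a small GTPase, was lower than in each, at 19.1 RPM against 39.0 and 59.0 RPM, but its fold of 2.04 against double-positive cells became 1.96 with TMM and 1.90 with DESeq2 size factors, under the 2-fold limit.

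The list of inhibitors of the pathway was counted in the same way. It was set by name, and some of its genes, among them *ptprc*, PTPN11 and *hcls1*, do not act only as inhibitors. Of 31 compared with double-positive cells, 15 (48.4%) were over 2-fold higher and 4 (12.9%) were lower, beside 24.0% and 20.5% of all genes. Of 32 compared with runx1 single-positive cells 18 were higher and 2 were lower, beside 29.0% and 20.1% of all genes. Their median differences were 0.98 and 1.17. Between the runx1+ populations 11 of 29 (37.9%) were higher in double-positive cells, 5 (17.2%) were lower and 13 were neither, beside 23.5% and 13.5% of all genes. *sla2a*, a copy of an adaptor that promotes receptor removal in mammalian lymphocytes, had 285 reads in gata2a single-positive cells and none in either runx1+ library. With 0 reads taken as 3, this was 95.3-fold above double-positive cells. *nfkbiaa*, a copy of the NF-kappa-B inhibitor, was at 115.1 RPM against 14.3 and 8.16 RPM. The more abundant copy *nfkbiab* was at 609.3 RPM against 307.7 and 146.2 RPM. *ptpn22*, a phosphatase that acts on Src and Syk family kinases, was at 399.9 RPM against 121.1 and 35.6 RPM. *hcls1*, an actin regulator known as a substrate of the receptor's kinases more than as an inhibitor, and *cblb*, a ubiquitin ligase, were over 3-fold above the nearer library. A copy listed under RASA1, a Ras GTPase activator, was at 2.96 RPM against 21.8 and 31.3 RPM. The more abundant copy under the same symbol was at 50.4 RPM against 86.3 and 73.6 RPM. As with the members, these lists were described by their counts, and no test of a list was made.

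Markers of other cells also differed between the libraries, some in the order of the signalling genes and others in the opposite one. For each list the sum of RPM in double-positive, runx1 single-positive and gata2a single-positive cells is given with and without its most abundant gene, which was singled out after the values were seen. The list of 13 other B cell genes, unlike the 9 genes, includes the immunoglobulin genes *ighm*, *ighz* and *ighd*. It summed to 183.9, 47.6 and 2338 RPM, and to 119.0, 36.4 and 315.1 RPM without *ighm*. In gata2a single-positive cells the sum without *ighm* still held 138.1 RPM of *ighz* and 11.1 RPM of *ighd*. In this list *pax5*, *rag1* and *ighz* were at 0 in both runx1+ libraries. Macrophage markers, 23 genes, summed to 673.8, 198.9 and 1116 RPM, and without the gene listed under SPI1 to 618.1, 107.5 and 600.3 RPM. These 23 genes were matched from 14 symbols, with several copies each under *mfap4* and MPEG1, most with few or no reads. Counts over this list therefore include copies of the same gene. Neutrophil markers, 15 genes, summed to 1685, 864.4 and 2548 RPM, and without *cebpa* to 625.2, 635.9 and 1045 RPM, while the granule enzyme *mpx* was highest in runx1 single-positive cells, at 105.9, 214.1 and 50.3 RPM. Mast cell and eosinophil markers, 5 genes, gave 69.3, 12.8 and 628.1 RPM, and 16.2, 12.8 and 82.2 RPM without *eslec*, with *hdc* at 0 in all 3 libraries. T and NK cell markers, 12 genes, gave 45.4, 20.3 and 409.4 RPM, and 11.1, 1.82 and 40.0 RPM without *gata3*. *cd4-1*, *cd8a* and *lck* were at 0 in both runx1+ libraries, but had only 2, 7 and 2 reads in gata2a single-positive cells. Of 7 genes compared with double-positive cells, 5 (71.4%) were over 2-fold higher and 1 (14.3%) was lower. The lower gene was *tcf7*, with 20, 0 and 2 reads in the 3 libraries, and *cd28* had 21, 6 and 18. The sums of these 5 lists were thus highest in gata2a single-positive cells, except the macrophage list without SPI1. That list holds *csf1rb*, at 485.7, 48.0 and 36.7 RPM. Of 13 neutrophil markers compared with double-positive cells, only 2 (15.4%) were over 2-fold higher and 4 (30.8%) were lower. Of 18 macrophage markers 11 (61.1%) were higher and 2 (11.1%) were lower, beside 24.0% and 20.5% of all genes. In each of the other lists more genes were higher than lower.

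Erythroid and stem cell markers had their lowest sums in gata2a single-positive cells, with or without their most abundant gene. Thrombocyte markers had their lowest sum there only with the gene listed under FLI1 included. Thrombocyte markers, 8 genes, summed to 1700, 1300 and 495.9 RPM, but to 210.6, 780.8 and 435.7 RPM without the gene listed under FLI1. Of these 8, 5 (62.5%) were over 2-fold lower and 3 (37.5%) higher in double-positive than in runx1 single-positive cells, beside 13.5% and 23.5% of all genes. In gata2a single-positive cells 5 (62.5%) were lower and 2 (25.0%) higher than in double-positive cells, beside 20.5% and 24.0%. *itga2b*, an integrin chain that the study also places in erythroid and myeloid lineages, was at 37.8, 367.5 and 0.37 RPM. Erythroid markers, 9 genes, summed to 315.6, 3065 and 7.05 RPM, and to 48.1, 602.0 and 2.85 RPM without their most abundant gene, listed under SLC4A1. The 7 stem cell markers summed to 751.9, 259.8 and 27.3 RPM, and to 290.5, 50.2 and 19.0 RPM without the gene listed under MEIS1. All 7 are genes that the study describes as highly expressed in double-positive cells, from these same libraries. That double-positive cells have the highest sum was thus set in advance by the choice of genes. Other genes that the study lists as stem and progenitor markers, among them *tal1*, *sox4a*, *abcg2a* and *gata2a*, were highest in another library. The part of any of these cell types in the levels of *syk*, *lyn*, *btk* and *plcg2* was not tested.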

How the data were processed

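RNA of 3 sorted populations was measured, 1 library each. The authors made poly-A primed cDNA by Quartz-Seq, aligned with HISAT2 2.1.0 to GRCz11, counted with Subread 1.6.4 and deposited RPM rounded to 2 decimals. The annotation release, the use of strand and the handling of reads with several matches are not given in the sources used here, so near-identical or overlapping genes are uncertain.

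Whole reads were recovered from the deposited RPM: in each library 1 total made 100.0% of the values whole to within 0.005 RPM, and the reads summed to that total. Symbols came from a table naming 28988 of the 32057 genes, many in human form, from the study's list of selected genes for 2 of them, and for the lists from RefSeq synonyms of GRCz12tu, used for names only. Of the listed symbols, 3 of 24 paralogues, 4 of 73 downstream genes (among them *vav1*) and 3 of 37 inhibitors were not matched. Genes were called by an RPM ratio over 2, with 3 reads as floor and more than 3 reads in the higher library. Folds and intervals were computed with scipy 1.17.1, and the steps were tested on simulated data. Named beside the 9 genes were their closest paralogues, the 5 genes per pathway list and direction furthest from the nearer library with at least 100 reads, and defining markers; 1 gene that this rule names is not reported here. The genes and lists were chosen with earlier results of these data known. Alternatives were edgeR 4.0.16 TMM factors and DESeq2 1.42.0 size factors in R 4.3.3, leaving out the 20 most-read genes of each library, other fold limits, a minimum of 5 RPM, pseudocounts, and Fisher's exact test. Sequences were not used here.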

Additional observations from a re-analysis of the deposited data

How the results depend on the processing

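With 1 library per population no replicate could be left out, and noise of sorting and amplification was not measured. No paired analysis was possible because each population has 1 library. A gene at or below about 0.37 RPM was not taken as detected. Under the 2 scalings and without the 20 most-read genes of each library (28 in all), each fold of a member that could be computed stayed inside its counting interval, and the only change of direction was that of *btk* between the gata2a+ libraries, from 1.02 to 0.993 without those 28 genes. DESeq2 size factors raised all log2 folds of gata2a single-positive over double-positive cells by 0.10. A pseudocount of 1 lowered the fold of *cd79b* over double-positive cells to 6.73 and that of *cd37* to 59.4, by its construction. The count of members higher in double-positive than in runx1 single-positive cells went from 2 to 1 at a fold limit of 3, and the 1 member that was lower, *blnk*, was lost (0) at that limit, at 5 RPM, with a pseudocount of 1 and with Fisher's exact test; all but the pseudocount were chosen after the values were seen. *pax5*, which had no read in the runx1+ libraries, was also used in place of *cd79a*. With 0 reads taken as 3, the excess in double-positive cells was then 41.3-fold for *syk*, 119.3-fold for *lyn* and 85.0-fold for *btk*, without an interval.

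Over all genes, the numbers higher and lower in gata2a single-positive than in double-positive cells were 3776 and 3223. They were 2326 and 1874 at a fold limit of 3, 1880 and 1742 at 5 RPM, 4977 and 4958 at a limit of 1.5, and 3466 and 3559, with more genes lower than higher, without the most-read genes. Against runx1 single-positive cells they were 4452 and 3093, with 2967 and 1725 at a limit of 3, 2339 and 1872 at 5 RPM, 5684 and 4656 at 1.5, and 4085 and 3409 without the most-read genes. For double-positive against runx1 single-positive cells they were 3500 and 2012, with 1961 and 1080 at a limit of 3, 1530 and 981 at 5 RPM, 4925 and 3435 at 1.5, 3129 and 2251 without the most-read genes, and 2319 higher with a pseudocount of 1. Requiring also an adjusted Fisher p under 0.05 left 3413 and 2938, 4103 and 2844, and 3093 and 1763 genes, respectively.

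Of the pathway counts, the 1 paralogue lower in gata2a single-positive than in double-positive cells was lost (0) with TMM and with DESeq2 size factors, and the 8 downstream genes lower there became 2 at 5 RPM. Between the runx1+ populations, 5 RPM left 5 of the 9 paralogues and 10 of the 21 downstream genes higher in double-positive cells. It left 3 of the 5 listed inhibitors lower, beside 1530 and 981 of all genes higher and lower. No share of the genes compared was computed at 5 RPM, for the lists or for all genes. The 1 paralogue that was lower was lost (0) at 5 RPM and with Fisher's exact test.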

Other observations

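Among 6187 genes with a symbol and at least 300 reads over the 3 libraries, the genes whose division of RPM among the libraries lay nearest to that of *cd79a* were *pou2f2b*, a copy of the octamer-binding factor of B cells, *sla2b*, GPR182, TUBB2B and *wdfy4*. They had between 93.6% and 96.3% of their summed RPM in gata2a single-positive cells. The likeness, as 0.5 times the sum of the absolute differences in share, was between 0.00422 and 0.0144. The genes nearest to *syk* were RAB1B, DNAJB12, NCBP2L, MTX2 and CAPZB, at 0.00223 to 0.00577. Each rests on 3 libraries, and no more than the resemblance is described.

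Not every listed B lineage gene had its highest level in gata2a single-positive cells. Of 11 compared with double-positive cells, 8 (72.7%) were over 2-fold higher and 3 (27.3%) were lower, beside 24.0% and 20.5% of all genes. A gene listed under BCL11A was at 87.8, 25.4 and 10.6 RPM and one listed under IRF4 at 24.5, 10.1 and 1.24 RPM in double-positive, runx1 single-positive and gata2a single-positive cells. *rag2* had 9 reads, all in double-positive cells, while *rag1* had 32, all in gata2a single-positive cells. All of these were named after their values were seen.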
